A study of Mus musculus with 12 samples.

Results

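Muscle fibres are torn by ordinary contraction, and the genes described here encode the proteins that reseal the sarcolemma, the plasma membrane of the fibre. The 9 genes were chosen for their role in membrane repair, with earlier results of these data known. Each was matched by symbol to 1 Ensembl gene among the 55450 genes of the count table. No threshold on a measured value was used to pick these genes. They are the ferlins *Dysf* (dysferlin) and *Myof* (myoferlin), the anoctamin *Ano5*, *Trim72* (MG53), the protease *Capn3* (calpain 3) and the annexins *Anxa1*, *Anxa2*, *Anxa5* and *Anxa6*.

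The samples were pieces of tibialis anterior (TA), a hindlimb muscle, from wild-type mice of the 129Pas background (129SvPas in the methods of the study), with no allele or treatment that differed between groups. RNAseq libraries came from 4 mice per age, at the embryonic stage E18.5 and at 2 and 7 weeks after birth, giving 12 libraries of 63018968 to 123449246 counts. The ages bracket birth and the postnatal growth of the muscle, and the comparison asks how the RNA of the repair genes changed between them. Each sample is a whole piece of muscle, so a lower level in fewer cells of a type and less RNA per cell cannot be told apart.

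When the membrane tears, calcium enters and draws repair proteins to the wound. MG53 gathers vesicles at the site, dysferlin binds calcium through its C2 domains and helps vesicles fuse, and annexins bind phospholipids in a calcium-dependent way and build a cap over the lesion. Loss of dysferlin, anoctamin 5 or calpain 3 causes limb-girdle muscular dystrophy in humans, while myoferlin is best known for the fusion of myoblasts into fibres.

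In GENCODE vM39 on GRCm39 all 9 genes are protein-coding. *Dysf* lies on chromosome 6 at 83985345-84188042 (plus strand), *Myof* on chromosome 19 at 37887484-38032048 (minus), *Ano5* on chromosome 7 at 51160595-51249083 (plus), *Trim72* on chromosome 7 at 127603062-127611190 (plus) and *Capn3* on chromosome 2 at 120294048-120338450 (plus). *Anxa1* lies on chromosome 19 at 20350792-20368374 (minus), *Anxa2* on chromosome 9 at 69360542-69399077 (plus), *Anxa5* on chromosome 3 at 36503072-36530126 (minus) and *Anxa6* on chromosome 11 at 54869654-54924305 (minus). Counts were summed over the exons of a gene, whose joint length runs from 3126 bases for *Anxa1* to 13769 bases for *Myof*.

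Sequences around the annotated starts are shown for the 3 genes with the largest rises and for *Anxa2* and *Anxa1*, which fell in both intervals, so that the start regions of both kinds can be read side by side. They are RefSeq sequences on GRCm38.p6, 250 bases before and 50 after a start, read on the strand of the gene. RefSeq start regions were at hand for 8 of the 9 genes (10 in all, since *Dysf* and *Capn3* have 2 starts each). *Anxa6* was not among them. Capitals mark matches on either strand to the E-box (CANNTG, the core bound by myogenic factors), the MCAT element (CATTCC), the TATA box (TATAAA), the GC box (GGGCGG), AP-1 (TGANTCA), the MEF2 site and the CArG box.
*Ano5*, chr7:51510779-51511078 (plus): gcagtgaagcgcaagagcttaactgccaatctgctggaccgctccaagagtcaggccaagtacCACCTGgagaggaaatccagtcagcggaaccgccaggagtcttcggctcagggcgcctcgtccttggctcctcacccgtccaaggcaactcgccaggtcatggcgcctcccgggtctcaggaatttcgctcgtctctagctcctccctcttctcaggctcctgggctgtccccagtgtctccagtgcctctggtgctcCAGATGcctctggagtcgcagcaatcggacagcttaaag
*Trim72*, chr7:128004128-128004427 (plus): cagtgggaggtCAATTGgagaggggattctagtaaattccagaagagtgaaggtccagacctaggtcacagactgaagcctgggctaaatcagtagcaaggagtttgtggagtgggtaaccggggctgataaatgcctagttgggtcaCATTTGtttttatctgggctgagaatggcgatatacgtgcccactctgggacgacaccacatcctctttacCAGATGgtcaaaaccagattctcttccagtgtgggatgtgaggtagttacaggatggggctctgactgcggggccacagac
*Capn3*, chr2:120476659-120476958 (plus): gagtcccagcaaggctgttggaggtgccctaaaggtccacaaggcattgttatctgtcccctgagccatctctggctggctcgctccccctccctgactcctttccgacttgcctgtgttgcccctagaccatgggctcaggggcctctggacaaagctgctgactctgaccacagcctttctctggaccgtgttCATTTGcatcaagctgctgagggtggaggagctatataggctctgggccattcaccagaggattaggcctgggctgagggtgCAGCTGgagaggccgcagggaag
*Anxa2*, chr9:69453433-69453732 (plus): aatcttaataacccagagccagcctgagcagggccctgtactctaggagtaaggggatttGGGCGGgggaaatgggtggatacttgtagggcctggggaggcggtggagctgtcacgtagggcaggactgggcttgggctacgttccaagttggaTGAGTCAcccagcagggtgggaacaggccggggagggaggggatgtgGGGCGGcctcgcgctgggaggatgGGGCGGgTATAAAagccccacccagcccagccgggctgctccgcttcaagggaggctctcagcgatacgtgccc
*Anxa1*, chr19:20390622-20390921 (minus): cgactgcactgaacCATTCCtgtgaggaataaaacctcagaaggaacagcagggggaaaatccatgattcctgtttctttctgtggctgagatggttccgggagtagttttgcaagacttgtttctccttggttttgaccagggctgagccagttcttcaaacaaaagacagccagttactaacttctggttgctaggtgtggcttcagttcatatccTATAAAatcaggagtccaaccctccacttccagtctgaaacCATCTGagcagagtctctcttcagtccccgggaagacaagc

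In these windows the *Trim72* E-boxes begin at positions -239, -102 and -31 from the start, those of *Ano5* at -187 and 12, and those of this *Capn3* start at -55 and 28. *Anxa2* held no E-box match. It held a TATA box at -17, an AP-1 match at -95 and GC boxes at -190, -48 and -24, and *Anxa1* held a TATA box at -32, an MCAT match at -236 and an E-box at 10. The other *Capn3* start held a MEF2 match at -72. An E-box was found in 5 of 6 start regions of *Dysf*, *Ano5*, *Trim72* and *Capn3* and in 2 of 4 of *Myof*, *Anxa1*, *Anxa2* and *Anxa5*, and 72.3% of 32851 mouse start regions of this length hold one. A TATA box was found in 0 of 6 and 2 of 4 (13.6% of all). A GC box was found in 2 of 6, both of *Dysf*, and 1 of 4 (35.7% of all). AP-1 and MCAT matches were each found in 0 of 6 and 1 of 4 (7.81% and 14.7% of all). A MEF2 match was found in 1 of 6 and 0 of 4 (3.19% of all), and a CArG match in 0 of 6 and 1 of 4 (1.63%). These are matches of letters, and none of them was tested as a binding site.

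Levels are given as CPM, the count in a library of standard size, scaled between libraries by the trimmed mean of M values (TMM), for replicates 1 to 4 of each age in that order. The plot of CPM by mouse shows 3 courses: a rise for *Dysf*, *Ano5*, *Trim72* and *Capn3*, a fall for *Myof*, *Anxa1*, *Anxa2* and *Anxa5*, and a nearly level course for *Anxa6*. Between E18.5 and 2 weeks 8 of the 9 genes passed an adjusted p of 0.05 in edgeR's quasi-likelihood test, 4 higher and 4 lower. Among all 19276 genes tested 65.7% passed in the same comparison, 31.5% higher and 34.2% lower, so a call was common in this tissue. From 2 to 7 weeks 4 of the 9 passed, 1 higher and 3 lower, against a background of 27.5% (13.5% higher and 13.9% lower). Over the whole span from E18.5 to 7 weeks 8 passed, 4 higher and 4 lower, against 71.4% (34.3% higher and 37.1% lower). Taken over the 9 genes, log2 fold changes had a median of 0.05 in the first interval and -0.16 in the second, beside -0.09 and -0.03 over all genes tested.

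**Figure D1:**
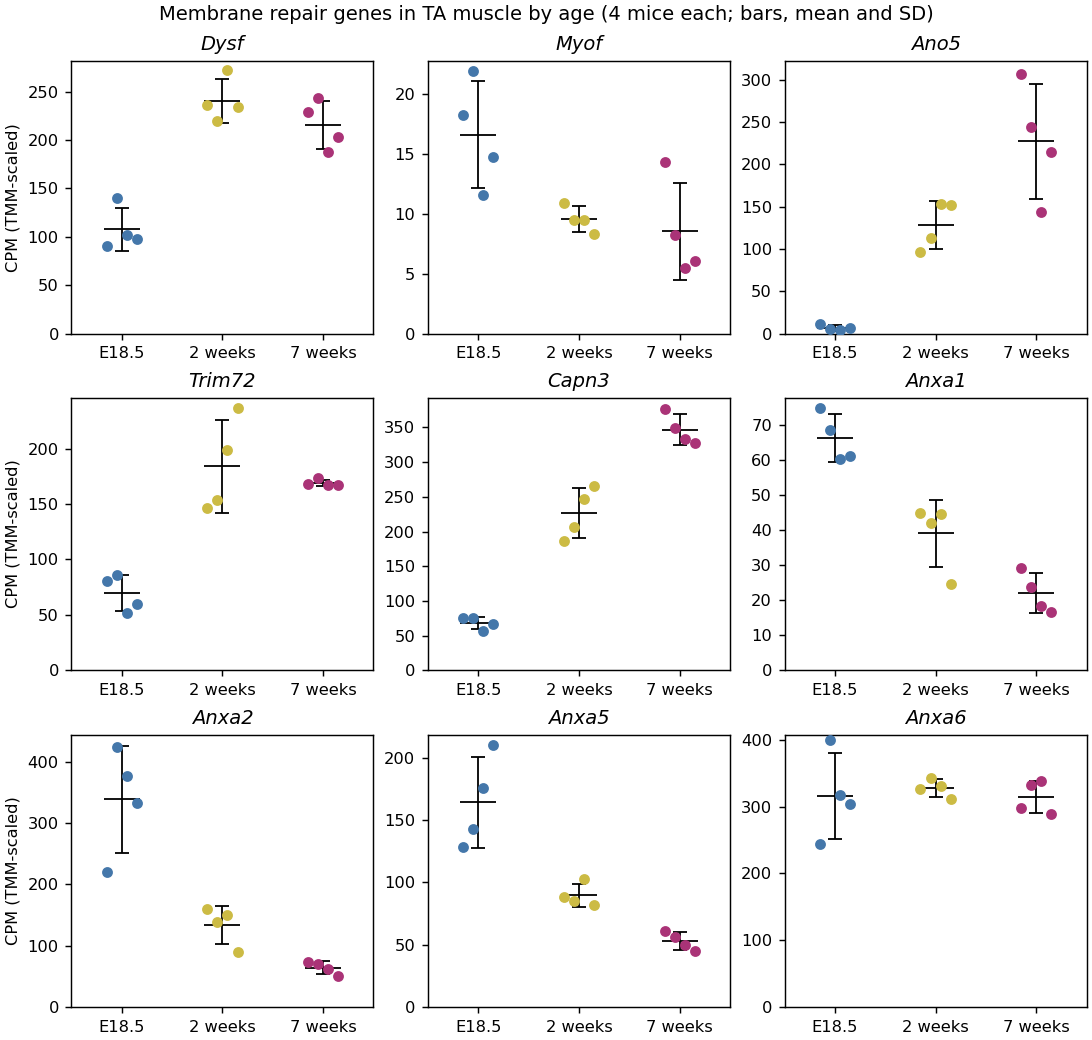
TMM-scaled CPM (y axes from 0) of the 9 membrane repair genes at E18.5, 2 weeks and 7 weeks, 1 point per mouse, with the mean and SD of 4 mice as a bar. *Ano5* goes from 3.66 to 10.95 CPM at E18.5 to 144 to 307 CPM at 7 weeks, and *Anxa6* stays between 244 and 400.0 CPM throughout.

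*Dysf* encodes the vesicle fusion protein of the repair patch. Its level was 90.5, 140.3, 102 and 97.6 CPM at E18.5, 236, 219.6, 272 and 234 CPM at 2 weeks, and 229, 244, 187 and 203 CPM at 7 weeks. The lowest mouse at 2 weeks stood above the highest at E18.5, whereas the mice of 2 and 7 weeks overlapped. The log2 fold change was 1.16 ± 0.16 (SE, edgeR adjusted p = 3.43e-05) to 2 weeks and -0.16 ± 0.16 (adjusted p = 0.494) from 2 to 7 weeks, where the 95% interval ran from -0.50 to 0.19.

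*Trim72*, whose product MG53 nucleates the patch, followed *Dysf* closely. It stood at 80.7, 86.2, 52.1 and 59.5 CPM at E18.5, 147, 154, 199 and 237 CPM at 2 weeks, and 168, 174, 167 and 168 CPM at 7 weeks. No mouse at 2 or 7 weeks was as low as any at E18.5, and the tight values of 7 weeks (169 ± 3.06 CPM, SD, n = 4) lay inside the wide spread of 2 weeks (184 ± 42.1 CPM). The rise to 2 weeks was 1.40 ± 0.19 on the log2 scale (adjusted p = 2.98e-05), and the value from 2 to 7 weeks was -0.12 ± 0.19 (adjusted p = 0.666, 95% interval -0.53 to 0.28). Of the pairs among the 9 genes, *Dysf* and *Trim72* had the most alike courses, with a root mean square difference of 0.27 log2 units over the 12 libraries after each gene was centred on its own mean.

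*Capn3*, the calpain of skeletal muscle, which binds titin in the sarcomere, rose in both intervals. Its level was 74.6, 75.0, 56.5 and 67.0 CPM at E18.5, 187, 206, 247 and 265 CPM at 2 weeks, and 377, 349.8, 333 and 327 CPM at 7 weeks. The 3 ages did not overlap at any point. The log2 fold change was 1.73 ± 0.16 (adjusted p = 9e-07) and then 0.61 ± 0.15 (adjusted p = 0.0092), and the second no longer passed on total-count scaling (0.28, adjusted p = 0.126). The exons of *Capn3* share 1981 bases, 26.8% of their length, with those of *Zfp106* on the opposite strand, which rose by 1.44 and then 1.56 on the log2 scale. The libraries kept the strand of the RNA, but the strand setting of the counting is not given in the sources used here, so the effect of this overlap on *Capn3* was not tested. *Trim72* shares 676 bases with *Gm15533*, which took 34 counts in all libraries together.

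*Ano5*, a member of the family of calcium-activated channels and lipid scramblases, showed the widest change. Its level at E18.5 was low, at 10.95, 5.28, 3.66 and 6.69 CPM, and reached 96.2, 112, 154 and 152 CPM at 2 weeks. At 7 weeks its level was 307, 244, 144 and 214 CPM. Every mouse after birth stood far above every embryo, while replicate 3 of 7 weeks fell inside the range of 2 weeks. The log2 fold change to 2 weeks was 4.27 ± 0.35 (19.3-fold, adjusted p = 3.98e-07). From 2 to 7 weeks it was 0.82 ± 0.31 with an adjusted p of 0.0597, and did not pass the threshold. This value passed without 7 weeks replicate 3 (0.99, adjusted p = 0.0321), without E18.5 replicate 1 (0.0246) or replicate 3 (0.0391), and in DESeq2 (0.0394). It also passed with the GC trend removed (0.76, 0.0195) and with only the 8 libraries compared (0.79, 0.0223). On total-count scaling (0.50) and upper-quartile scaling (0.72) it did not pass. Nor did it pass with the replicate block, a minimum of 10 counts per library, no filter, or TMM without the most abundant genes. Leaving out any other single library gave 1 rising gene past the threshold among the 9, as in the main fit.

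*Myof*, the other ferlin, was the scarcest of the falling genes. Its level was 18.2, 21.8, 11.5 and 14.7 CPM at E18.5, 10.9, 9.46, 9.45 and 8.26 CPM at 2 weeks, and 14.3, 8.20, 5.50 and 6.05 CPM at 7 weeks. The mice of E18.5 and 2 weeks were separated by a narrow gap, and replicate 1 of 7 weeks stood among the embryos. The log2 fold change to 2 weeks was -0.80 ± 0.28 (adjusted p = 0.0208). It no longer passed without E18.5 replicate 2 (-0.64, adjusted p = 0.0654) or without 2 weeks replicate 4 (-0.73, adjusted p = 0.0593). From 2 to 7 weeks the value was -0.16 ± 0.28 (adjusted p = 0.70).

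*Anxa2*, which forms a tetramer with S100A10 and bridges membranes, fell the most. It was measured at 221, 425, 376 and 333 CPM at E18.5, 159, 138, 150.2 and 90.0 CPM at 2 weeks, and 73.6, 70.1, 61.8 and 50.5 CPM at 7 weeks. The ages were fully separated, with replicate 4 of 2 weeks the nearest to the mice of 7 weeks. The falls were -1.33 ± 0.23 (adjusted p = 0.000159) and -1.07 ± 0.22 (adjusted p = 0.00366) on the log2 scale, so that 7 weeks stood 5.29-fold below E18.5.

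*Anxa5*, known for binding phosphatidylserine and assembling into lattices on membranes, also fell in 2 steps. Its level was 129, 143, 176 and 211 CPM at E18.5, 88.5, 84.9, 103 and 82.2 CPM at 2 weeks, and 60.6, 56.4, 49.5 and 45.1 CPM at 7 weeks, again with no overlap between ages. The log2 fold changes were -0.88 ± 0.17 (adjusted p = 0.000449) and -0.76 ± 0.17 (adjusted p = 0.00507). *Anxa1*, which is recruited to lesions by calcium and also acts in inflammation, stood at 74.9, 68.6, 60.4 and 61.1 CPM at E18.5, 44.9, 41.9, 44.7 and 24.7 CPM at 2 weeks, and 29.2, 23.7, 18.4 and 16.5 CPM at 7 weeks. Replicate 4 of 2 weeks was low and fell within the range of 7 weeks. The log2 fold changes of *Anxa1* were -0.76 ± 0.21 (adjusted p = 0.00576) and -0.83 ± 0.21 (adjusted p = 0.0109).

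*Anxa6*, the annexin whose core of repeats is duplicated, was the member without a call under TMM. It was measured at 244, 400.0, 318 and 304 CPM at E18.5, 326, 342, 331 and 311 CPM at 2 weeks, and 298, 333, 338 and 289 CPM at 7 weeks, and the mice of all ages overlapped. The log2 fold changes were 0.05 (adjusted p = 0.786) with a 95% interval of -0.28 to 0.38, and -0.06 (adjusted p = 0.807) with an interval of -0.39 to 0.27. On total-count scaling and with the GC trend removed the first value was -0.88 and -0.27 and passed the threshold as a fall.

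**Figure D2:**
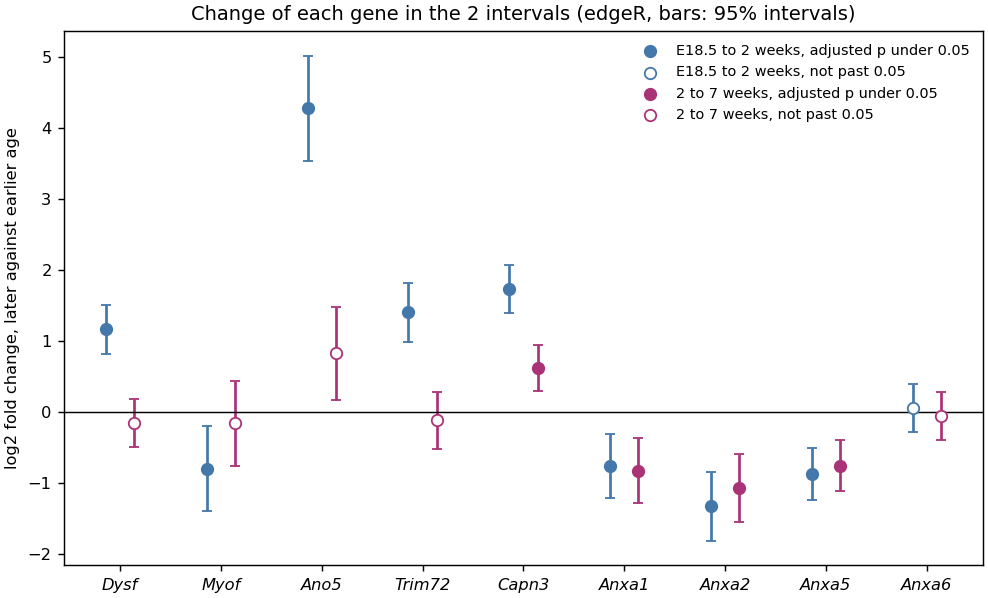
Log2 fold change (y axis) of each gene from E18.5 to 2 weeks and from 2 to 7 weeks, with 95% intervals from edgeR; filled points passed an adjusted p of 0.05. The 4 rising genes have their larger change in the first interval, from 1.16 to 4.27, while *Anxa1*, *Anxa2* and *Anxa5* fall by similar amounts in both.

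Whether a gene changed more in one interval than in the other was tested directly. The difference passed for 4 of the 9 genes, which were the 4 that rose, against 38.4% of all genes tested. The change to 2 weeks exceeded the later change by 1.32 ± 0.27 log2 units for *Dysf* (adjusted p = 0.00254), 3.45 ± 0.51 for *Ano5* (adjusted p = 0.000296), 1.52 ± 0.32 for *Trim72* (adjusted p = 0.00281) and 1.12 ± 0.26 for *Capn3* (adjusted p = 0.0047). On total-count scaling 3 passed, and *Capn3* did not (0.51, adjusted p = 0.0843). With the GC trend removed only *Ano5* and *Capn3* passed, and *Dysf* and *Trim72* had differences of 0.41 (adjusted p = 0.233) and 0.60 (adjusted p = 0.248). For the 3 falling annexins the difference lay between -0.26 and 0.07 and did not pass, with 95% intervals that reached from -1.09 for *Anxa2* to 0.85 for *Anxa1*.

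These directions depend in part on how the libraries are put on one scale. The 20 most abundant genes of a library took 13.7 to 16.1% of counts at E18.5, 33.2 to 35.6% at 2 weeks and 36.4 to 37.8% at 7 weeks. Scaling to the total count shifted the median log2 fold change of all genes to -1.02, -0.38 and -1.37 in the 3 comparisons. Under it *Dysf* changed by 0.23 to 2 weeks (adjusted p = 0.226) and -0.28 to 7 weeks (adjusted p = 0.138), and *Trim72* by 0.46 to 2 weeks (still past the threshold) and 0.01 to 7 weeks (adjusted p = 0.964). Relative to the shifted median *Dysf* stood 1.25 and 1.09 higher and *Trim72* 1.48 and 1.37 higher. Of the 9 genes, 3 were higher and 5 lower to 2 weeks on the total count, and 2 and 5 over the whole span. From 2 to 7 weeks 0 were higher and 4 lower (*Dysf* being the added fall, at -0.50, adjusted p = 0.0323). Among all 19276 genes tested, 2550 were higher and 11923 lower to 2 weeks on the total count. The counts were 948 and 5392 from 2 to 7 weeks, and 2291 and 13297 over the whole span. Upper-quartile scaling shifted the medians less, to -0.23, -0.14 and -0.33, and kept each call of the 9 genes. *Ano5* and *Capn3* rose to both later ages under TMM, upper-quartile and total-count scaling, by 3.34 and 0.79 to 2 weeks on the total count. *Anxa2* and *Anxa5* fell in both intervals under the same 3 scalings. With the trend of fold change against GC content removed, the fall of *Anxa1* to 2 weeks was -0.09 (adjusted p = 0.661) and that of *Myof* was -0.55 (adjusted p = 0.0782), whereas the changes of *Dysf* (0.56) and *Trim72* (0.77) were smaller and still passed.

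**Figure D3:**
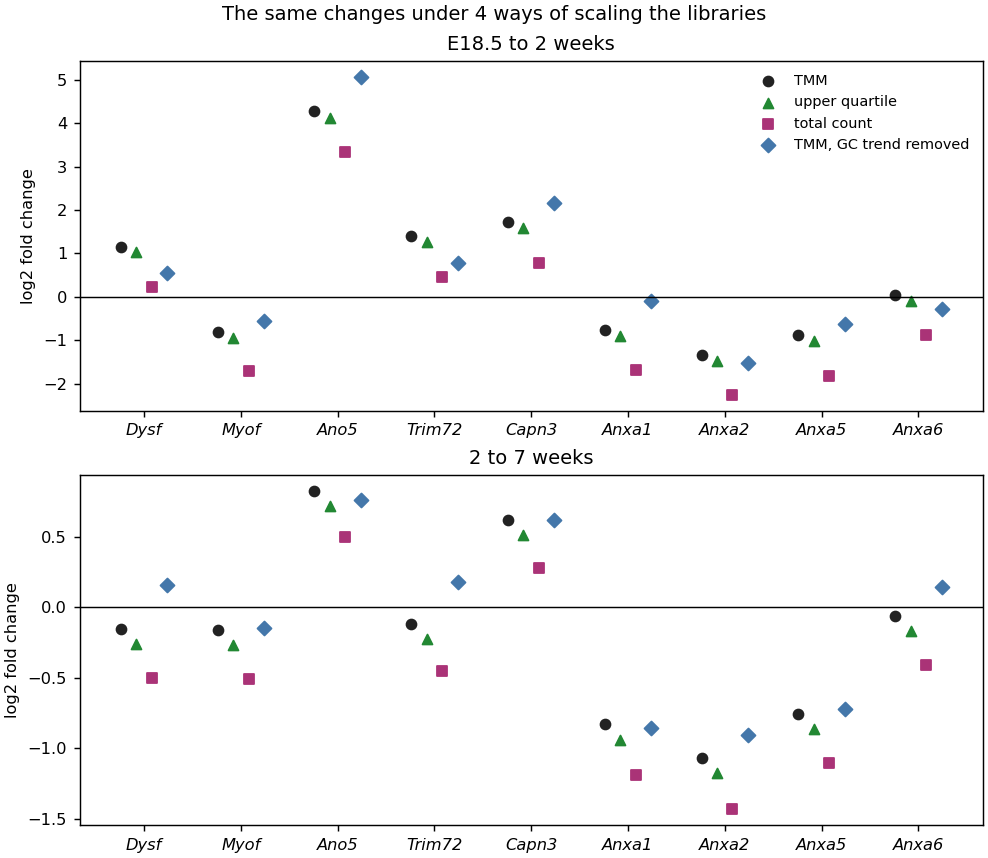
Log2 fold change (y axes) of the 9 genes in the 2 intervals under TMM, upper-quartile scaling, total-count scaling and TMM with the GC trend removed. Total-count values lie below the TMM values for every gene, and *Dysf* drops from 1.16 to 0.23 in the first interval.

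Ratios of genes within a library do not depend on that scaling. The ratio of *Dysf* to *Myof*, from counts per kilobase of exon, was 5.94, 7.70, 10.6 and 7.97 at E18.5, 25.99, 27.8, 34.5 and 33.96 at 2 weeks, and 19.1, 35.6, 40.8 and 40.2 at 7 weeks. All 4 mice of 2 weeks and all 4 of 7 weeks exceeded every embryo. The log2 ratio rose by 1.94 ± 0.20 (SE, n = 4 per age, 3.85-fold) to 2 weeks, and by 0.10 ± 0.28 from 2 to 7 weeks. With the GC trend removed the first rise was smaller, at 1.07, and that over the whole span was 1.44 in place of 2.04. A two-sided exact permutation test of 4 against 4 gave p = 0.0286 for the first (adjusted 0.0343 over 6 comparisons of ratios) and p = 0.743 for the second, and 0.0286 is the smallest p that this design allows.

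The ratio of *Anxa6* to *Anxa2* turned over. In the embryos it was 0.819, 0.699, 0.627 and 0.678, so that *Anxa2* stood higher per kilobase of joint exon length in all 4. In raw counts replicate 1 held more *Anxa6* (35145) than *Anxa2* (31855), and the other embryos held more *Anxa2*. The length used cancels in the change of the ratio with age, but not in which gene stands higher. It was 1.52, 1.84, 1.64 and 2.57 at 2 weeks and 3.00, 3.52, 4.06 and 4.25 at 7 weeks, with no overlap between ages. The log2 ratio rose by 1.40 ± 0.19 and by 0.99 ± 0.20, each with an exact permutation p of 0.0286 (adjusted 0.0343). The geometric mean went from 0.702 to 1.85 to 3.67. This ratio and that of *Dysf* to *Myof* were chosen with earlier results of these data known, which the p-values do not take into account.

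The same turn appeared in the share of each gene in its family, as counts per kilobase of joint exon length within a library. Among 12 annexins *Anxa2* made up 37.2 ± 4.28% (SD, n = 4) at E18.5, 22.4 ± 3.45% at 2 weeks and 13.2 ± 1.83% at 7 weeks, and *Anxa6* 26.1 ± 2.01%, 41.1 ± 3.09% and 48.1 ± 1.47%. *Anxa1* went from 12.2 ± 3.28% to 7.30 ± 1.86% and *Anxa5* from 10.97 ± 2.33% to 6.48 ± 0.784% over the whole span. Among 6 ferlins *Dysf* held 85.3 ± 3.56% in the embryo already and 93.5 ± 1.19% at 7 weeks, while *Myof* went from 10.96 ± 2.11% to 3.02 ± 1.19%. *Ano5* was 5.11 ± 2.91% of 10 anoctamins at E18.5, 42.1 ± 4.73% at 2 weeks and 54.9 ± 5.21% at 7 weeks, and *Ano6*, a widely expressed scramblase, led the family in the embryos with 37.6 ± 6.10%. *Capn3* went from 6.24 ± 0.745% of 8 calpains to 45.2 ± 4.63% and 54.0 ± 1.73%. *Capn6*, a calpain without protease activity, held 78.3 ± 3.42% at E18.5 and 1.81 ± 0.571% at 7 weeks.

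**Figure D4:**
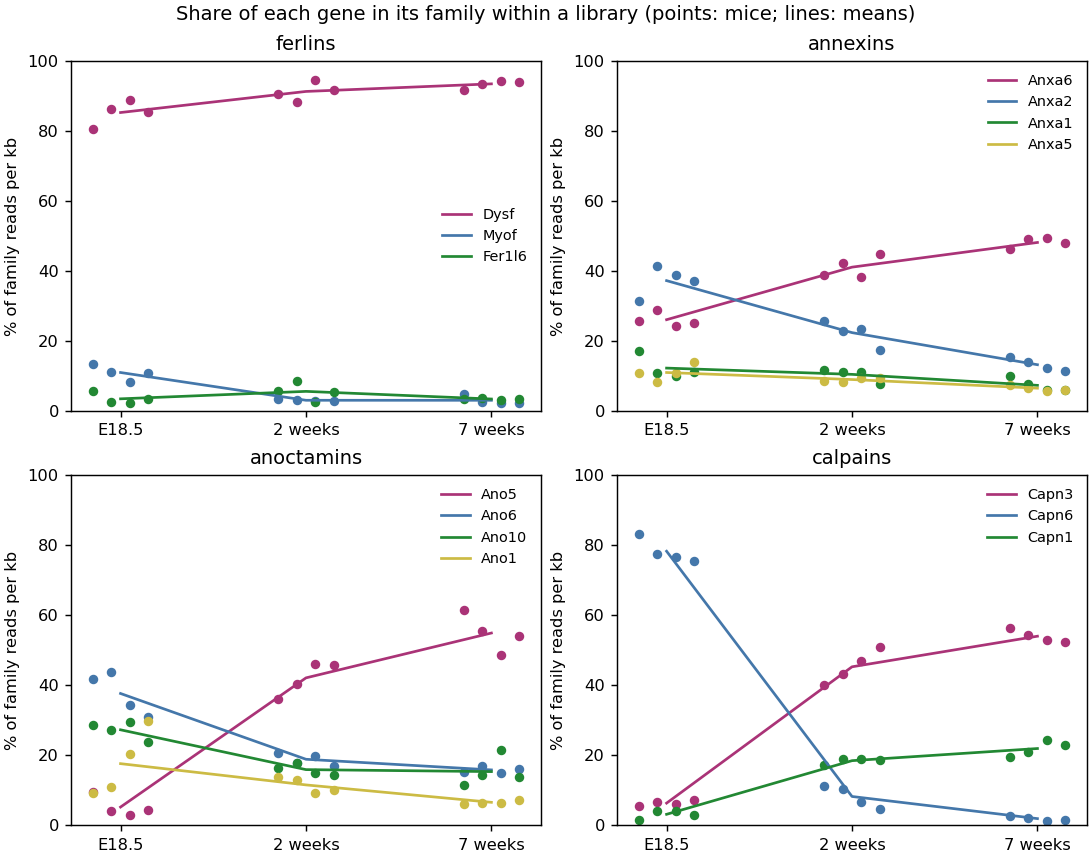
Share of the family's counts per kilobase (y axes, percent) held by the main ferlins, annexins, anoctamins and calpains in each library, with 1 point per mouse and lines through the means of 4 mice. *Anxa6* passes *Anxa2*, *Ano5* passes *Ano6*, and *Capn3* passes *Capn6* between E18.5 and 2 weeks.

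Per kilobase of exon, the order of the 9 genes changed with age. This order rests on the joint exon length of each gene, not on the length of the transcripts expressed. At E18.5 *Anxa2* (67.3 CPM per kilobase) and *Anxa6* (46.7) stood highest with overlapping mice. *Trim72* (21.2), *Anxa1* (21.2) and *Anxa5* (19.4) could not be ordered beyond their spread, nor could *Dysf* (9.37) and *Capn3* (9.24), and *Myof* (1.20) and *Ano5* (0.616) came last. At 2 weeks *Trim72* (56.2) and *Anxa6* (48.3) led, with *Capn3* (30.7), *Anxa2* (26.7) and *Dysf* (20.9) next, each overlapping its neighbour. *Anxa1* (12.5), *Ano5* (11.9) and *Anxa5* (10.6) overlapped, and *Myof* (0.691) was last. By 7 weeks *Trim72* (51.6) stood above every mouse of *Anxa6* (46.4), while *Capn3* (46.9) overlapped both, with 1 mouse at 51.0 just inside the range of *Trim72*. *Ano5* (21.1) and *Dysf* (18.8) overlapped below them. *Anxa2* had come down to 12.7 and overlapped the lowest mouse of *Ano5*, *Anxa1* (7.03) and *Anxa5* (6.24) overlapped each other, and *Myof* (0.618) was last.

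Markers of other cell types also moved with age, in both directions. All 8 genes of a fibroblast list (among them *Pdgfra*, *Dcn*, *Lum* and *Col3a1*) were detected in every library. Their summed level was 6806, 9067, 6887 and 4760 CPM at E18.5, 5233, 5240, 4758 and 3591 CPM at 2 weeks, and 3061, 1524, 1147 and 907.7 CPM at 7 weeks. *Col3a1* held the largest part of this sum, with means of 4216, 2379 and 690.9 CPM at the 3 ages, and *Col1a1* had 1256, 1334 and 290 CPM. The sum therefore follows collagen RNA more than the other markers. Of the 8, 4 passed lower and 2 higher (*Pi16* by 1.48 and *Col15a1* by 1.37) to 2 weeks. From 2 to 7 weeks 3 passed lower (*Col1a1*, *Col3a1* and *Col15a1*) and 0 higher, and *Dcn* changed by 0.14 (adjusted p = 0.716). The 6 macrophage markers summed to 184.9 to 233.2 CPM at E18.5, 90.4 to 118 CPM at 2 weeks and 38.9 to 105.9 CPM at 7 weeks. Library by library, replicate 4 of 2 weeks held the lowest fibroblast sum of its age and the lowest *Anxa1*, *Anxa2*, *Anxa5* and *Myof*. Its sums of macrophage (90.4 CPM), Schwann cell (133 CPM), satellite cell and myoblast (85.2 CPM) and neutrophil markers (0.118 CPM) were also the lowest. Replicate 1 of 7 weeks held the highest fibroblast sum and the highest level of each of these genes at its age. Its sums of macrophage (105.9 CPM), tendon (211 CPM) and red blood cell markers (127.5 CPM) were also the highest.

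Without replicate 4 of 2 weeks the falls of *Anxa1*, *Anxa2* and *Anxa5* to 2 weeks were -0.59, -1.17 and -0.83 and still passed, whereas that of *Myof* did not, as given above. With both libraries left out, a setting chosen after their values were seen, 8 members passed to 2 weeks. Leaving them out widens the later falls by construction, so those are not given. Among the embryos, replicate 2 had the highest fibroblast sum and the highest *Anxa2* and *Myof*. Replicate 1 had the highest *Anxa1*, and replicate 4 had the lowest sum and the highest *Anxa5*. The adipocyte markers differed widely between embryos, with sums of 10.8, 14.7, 382.9 and 351 CPM in replicates 1 to 4. The 6 muscle fibre markers (such as *Ckm*) were all detected. They summed to 8871 to 17710 CPM at E18.5, 144000 to 166300 CPM at 2 weeks and 139500 to 178500 CPM at 7 weeks. All 6 passed higher to 2 weeks and 0 passed from 2 to 7 weeks. The difference between the intervals passed for all 6 as well, with a median of 3.90 log2 units. To 2 weeks 5 of 6 endothelial markers and 4 of 5 pericyte and smooth muscle markers passed higher and 0 lower, with median log2 fold changes of 1.25 and 1.41. In the same interval 5 of 5 adipocyte markers (median -5.09), 5 of 5 neutrophil markers (-4.29), 4 of 5 epidermis markers (-5.21), 5 of 6 cartilage and bone markers (-3.15), 2 of 4 tendon markers (-0.66) and 2 of 6 red blood cell markers (-0.97) passed lower. Schwann cell markers passed 2 higher and 1 lower, and those of satellite cells and myoblasts 1 higher and 3 lower. In the later interval the lists of endothelial cells, satellite cells and myoblasts, and cartilage and bone had 3 lower each, those of Schwann cells and red blood cells had 4 each, and none of these had any higher. The part of all these cell types in the levels of the repair genes was not tested.

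**Figure D5:**
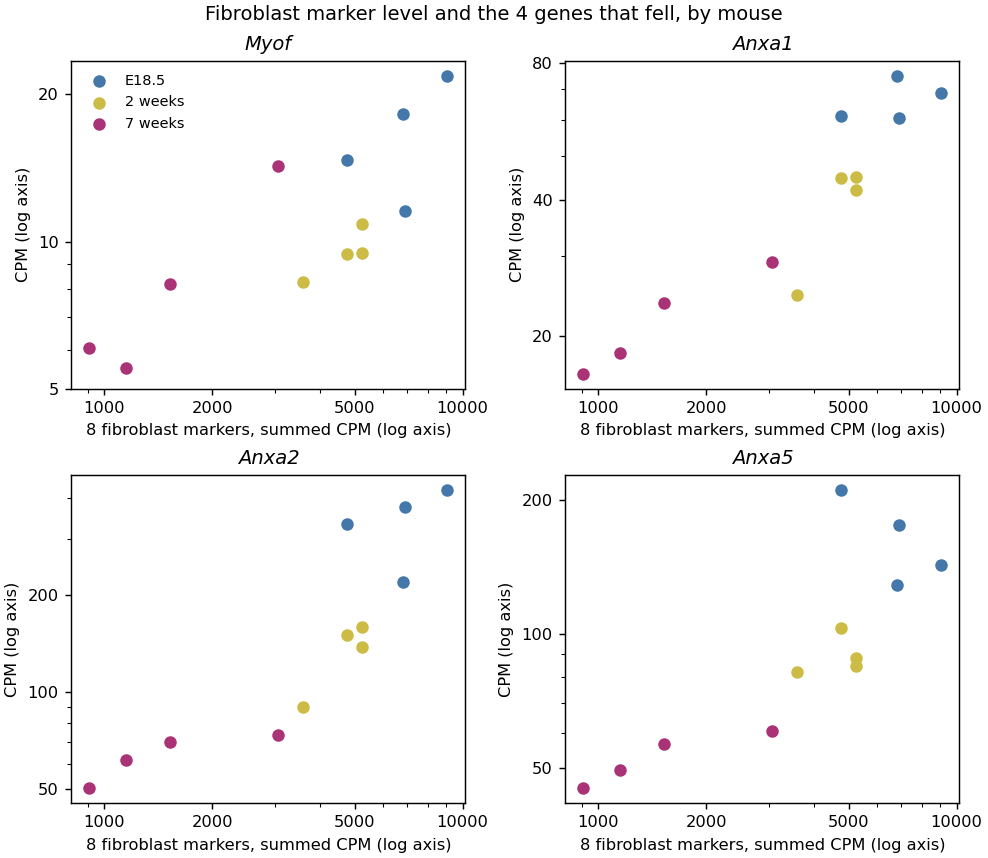
CPM of *Myof*, *Anxa1*, *Anxa2* and *Anxa5* (y axes, log) against the summed CPM of 8 fibroblast markers (x axes, log), 1 point per mouse and coloured by age. At 7 weeks the mouse with the highest marker sum (3061 CPM) has the highest level of all 4 genes, and also the highest macrophage marker sum (105.9 CPM). *Col3a1* holds the largest part of the fibroblast sum in the means of each age.

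A list of partners in repair was followed beside the members, with 23 of 25 symbols matched and all 23 tested. To 2 weeks 12 rose, 6 fell and 5 did not pass (median log2 fold change 0.59 against -0.09 over all genes). *Sypl2*, a protein of the triad membrane, rose by 2.43 and *Myh9*, a non-muscle myosin, by 1.73. *S100a10*, the partner of annexin A2, and *S100a11*, a partner of annexin A1, each fell by 1.07. From 2 to 7 weeks 4 rose (*Vps4a* by 0.63, *Ahnak* by 0.54, *Chmp4b* by 0.48 and *Tsg101* by 0.37) and 6 fell, with the largest falls in *S100a11* (-1.17) and *Ehd2* (-1.17). *Vps4a*, *Chmp4b* and *Tsg101* belong to the ESCRT machinery that pinches off damaged membrane, and *Ehd2* is an ATPase at the necks of caveolae. Over the whole span 10 rose, led by *Smpd1* (2.04, acid sphingomyelinase) and *Chmp4b* (1.52), and 6 fell, led by *S100a11* (-2.24) and *S100a10* (-2.08). On total-count scaling the split to 2 weeks was 3 higher and 12 lower. From 2 to 7 weeks it was 0 higher and 8 lower, and over the whole span 1 higher and 14 lower. The same scaling gave 2550 higher and 11923 lower to 2 weeks among all 19276 genes tested. For all genes it gave 948 and 5392 from 2 to 7 weeks, and 2291 and 13297 over the whole span.

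The S100 partners were measured beside *Anxa2* in every library. In CPM, *S100a10* went from a mean of 120.8 at E18.5 to 57.6 at 2 weeks and 28.5 at 7 weeks, and *S100a11* from 88.9 to 42.4 and 18.9. Beside *Anxa2* at 339, 134 and 64.0 CPM, each gene lost more than 1 log2 unit in either interval.

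Of 6 other annexins tested (8 matched), *Anxa11* (2.18) and *Anxa3* (1.11) rose to 2 weeks and *Anxa8* (-5.07), *Anxa4* (-1.18) and *Anxa9* (-0.80) fell. *Anxa8* was scarce, with a mean of 8.33 CPM at E18.5 and 0.245 CPM at 2 weeks. Per kilobase it made up 0.7155, 1.07, 5.63 and 2.07% of the 12 annexins in embryos 1 to 4. In the same embryos the epidermis markers summed to 8.33, 52.1, 7.72 and 2.23 CPM, and the adipocyte markers to 10.8, 14.7, 382.9 and 351 CPM. At 2 weeks these sums were 2.82 to 4.11 CPM and 3.036 to 8.885 CPM. The part of these cell types in the level of *Anxa8* was not tested. From 2 to 7 weeks *Anxa7* rose (0.84) and *Anxa3* fell (-0.52), and over the whole span *Anxa11* (2.52), *Anxa7* (0.59) and *Anxa3* (0.58) were higher and *Anxa8* (-4.32), *Anxa4* (-1.16) and *Anxa9* (-0.45) lower. Total-count scaling, under which most calls over all genes were lower, gave 1 higher and 4 lower to 2 weeks. From 2 to 7 weeks it gave 1 and 1, and over the whole span 1 and 5. *Anxa11*, which acts in the transport of vesicles and RNA granules, stood at 9.49, 43.0 and 54.4 CPM in the means of the 3 ages.

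Of 9 other ferlins and anoctamins tested (13 matched), 5 rose and 0 fell to 2 weeks at the threshold. They were *Fer1l6* (1.78), *Ano4* (1.62), *Ano8* (1.25), *Ano3* (0.90) and *Ano10* (0.39), beside 4.27 for *Ano5*. Some were scarce: means at E18.5 and 2 weeks were 0.429 and 1.32 CPM for *Ano4*, 1.26 and 2.34 CPM for *Ano3*, and 2.94 and 10.1 CPM for *Fer1l6*. The means of *Ano8* were 10.8 and 25.5 CPM, those of *Ano10* 30.4 and 39.9 CPM, and those of *Ano5* 6.65 and 129 CPM. *Ano10* alone passed from 2 to 7 weeks (0.33), and *Ano4* (2.13), *Ano8* (0.98), *Fer1l6* (0.91) and *Ano10* (0.72) passed over the whole span. The total-count splits were 2 higher and 3 lower to 2 weeks, 0 and 2 from 2 to 7 weeks, and 1 and 4 over the whole span. Most calls over all genes were lower on that scaling too.

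Of the 9 other calpains and calpastatin, *Capn1* (1.51), *Capn15* (1.34) and the small subunit *Capns1* (1.17) rose to 2 weeks and *Capn6* fell (-4.45). From 2 to 7 weeks *Cast* (0.66, the calpain inhibitor calpastatin), *Capn1* (0.61) and *Capn7* (0.55) rose and *Capn6* (-1.77) and *Capn5* (-0.78) fell. Over the whole span *Capn1* (2.12), *Capns1* (0.99) and *Cast* (0.55) were higher, and *Capn6* (-6.22) and *Capn5* (-1.29) were lower. On total-count scaling 1 was higher and 5 lower to 2 weeks, 0 and 5 from 2 to 7 weeks, and 1 and 6 over the whole span. Here too, most calls over all genes were lower.

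Genes with the most similar course to each member were sought among 8937 genes whose log2 CPM averaged 3 or more, by the root mean square difference of centred log2 CPM over the 12 libraries. The nearest to *Dysf* were *Styxl2* (0.14) and *Itfg2* (0.146), and to *Trim72* *Asb8* (0.14) and *Cand2* (0.163). *Capn3* was nearest to *Dcun1d2* (0.127) and *Slc6a8* (0.132, the creatine transporter), and *Ano5* to *Fbxo40* (0.294) and *Cdnf* (0.426). *Anxa2* was nearest to *Fads3* (0.227) and *Fabp5* (0.233), *Anxa1* to *Tgfbr2* (0.144, a TGF-beta receptor) and *Parva* (0.172), *Anxa5* to *Carhsp1* (0.159) and *Shmt1* (0.181), and *Myof* to *Frmd6* (0.211) and *Antxr2* (0.224). The nearest to *Anxa6* were *Gtf3c5* (0.0903) and *Rpl7l1* (0.0943). Within the 9 genes the closest pairs after *Dysf* and *Trim72* were *Anxa1* with *Anxa5* (0.301) and *Myof* with *Anxa1* (0.376).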

How the data were processed

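RNA from TA muscle was prepared with the TruSeq Stranded mRNA kit and sequenced by the authors. The submitters' processing notes name bcl2fastq 2.17.1.14, cutadapt 1.10, STAR 2.5.3a and HTSeq 0.6.1p1 with the build mm10, whereas the methods of the study name GRCm39. The annotation release and the strand setting of the counting are not given in the sources used here. The deposited values are raw counts per Ensembl gene, whole numbers with no normalization.

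Counts were scaled with TMM and fitted with edgeR 4.0.16 (R 4.3.3, limma 3.58.1) in 1 quasi-likelihood model of all 12 libraries, with no term but age. filterByExpr kept 19276 genes, including all 9 members, and p-values were adjusted by Benjamini-Hochberg over all of them at a threshold of 0.05. CPM divided by the joint length of all exons of a gene (GENCODE vM39) gave levels per kilobase. The length of the transcripts expressed is not known here, so orders between genes depend on this choice. Log2 CPM used a prior count of 2. Ratios were taken from raw counts and tested by exact permutation over the 70 regroupings (scipy 1.17.1, Python 3.11.15). The members, lists and comparisons were chosen with earlier results of these data known. From each list, the 2 largest rises and falls past the threshold were named, every gene of a count of 5 or fewer, and the 2 genes nearest in course to each member. Family shares were added after seeing the data. On simulated counts for E18.5 to 2 weeks, edgeR recovered 198 of 200 genes changed 4-fold, with 12 false calls among 18882 genes tested. It recovered 120 of 200 changed 2-fold, with 5 false calls among 18895. The dispersion was set at 0.05, the 200 genes changed evenly up and down, and all others kept 1 level at every age. The simulation therefore held no broad shift between ages, and its rates do not cover the choice of scaling in these data. Replicates of an age differed by far more than counting noise (chi-square per degree of freedom of 34.3 to 576.9 in 18 pairs). The biological coefficient of variation was 0.279. Alternatives were total-count and upper-quartile scaling, TMM without the 20 most abundant and the mitochondrial genes, a replicate block, DESeq2 1.42.0, a minimum of 10 counts per library, no filter at all, removal of the GC trend, only the 8 libraries compared, and leaving out each library. GC content was known for 98.7% of the tested genes.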

Additional observations from a re-analysis of the deposited data

Results flagged for a closer look

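Of 33 sets of 4 mice (9 genes and 2 ratios at 3 ages), 1 had a mouse far from the others by Dixon's criterion at 95% (0.829), where chance gives about 1.65. *Anxa1* in replicate 4 of 2 weeks was measured at 24.69 CPM beside 41.9 to 44.9 CPM in the other mice, a gap of 0.854 of the whole range. Without this library the log2 fold change of *Anxa1* to 2 weeks was -0.59 and still passed. Leaving it out widens the later fall by construction, so that value is not given. The same library held the lowest sums of its age for fibroblast (3591 CPM), macrophage (90.4 CPM), Schwann cell, satellite cell and myoblast, and neutrophil markers.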

How the results depend on the processing

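Beside the values given above, the calls of the 9 genes in the 4 comparisons were recomputed under every alternative (783 values for single genes). Of these 762 kept their call, 10 lost it, 8 gained it and 3 turned, and 29 values that never passed changed sign, most of them for *Anxa6*. The 3 that turned were *Dysf* from E18.5 to 7 weeks on total-count scaling (-0.28), and *Anxa6* to 2 weeks on total-count scaling (-0.88) and with the GC trend removed (-0.27). With the GC trend removed 2 members passed the difference between the intervals in place of 4. The cause of these changes was not tested. Leaving out each library gave 7 to 8 members called to 2 weeks, 4 to 5 from 2 to 7 weeks, and 8 over the whole span. The 6 ratio comparisons kept their direction and call under the prior count and the GC correction, although the GC correction lowered the rise of *Dysf* to *Myof* as given above. The share of calls that were higher was 47.9%, 49.3% and 48.1% in the 3 comparisons under TMM and 17.6%, 14.9% and 14.7% on the total count (27.6% in place of 56.3% for the difference), and from 2 to 7 weeks it was 36.7% under upper-quartile scaling and 63.7% with the GC trend removed. Without 2 weeks replicate 1, 3472 genes passed from 2 to 7 weeks in place of 5296, and without 2 weeks replicate 4 and 7 weeks replicate 1 the difference between the intervals passed in 4435 in place of 7398. Upper-quartile scaling, the filters and TMM without the most abundant genes changed no call of the 9 genes.

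Same-numbered mice deviated together in some pairs and not in others (r from -0.308 to 0.578, over 0.1 in 5 of 12 pairs). Mice of different ages with unlike numbers gave r from -0.541 to 0.415. The highest value joined replicate 1 of E18.5 and replicate 1 of 7 weeks. The numbers were not treated as pairs, and these values cannot exclude a factor shared by number. With the replicate block 8, 4 and 8 members passed in the 3 comparisons and 4 the difference, as without it. The paired sign-flip test of the ratios cannot go below 0.125, and the mean differences were the same (1.94, 0.10 and 2.04 for *Dysf* to *Myof*, and 1.40, 0.99 and 2.39 for *Anxa6* to *Anxa2*). The smallest count of a member in a library was 359, for *Myof* at 7 weeks, and the part of depth in single calls was not tested.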
